A study of Mus musculus with 4 samples.

Results

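The lung of cancer exercise mice [E(+)T(+)] was compared with the lung of normal control mice [E(-)T(-)], to describe which genes and which cell type markers lay away from the untreated, resting state and which lay near it. Of 23282 gene rows, 9396 had a mean normalized read count of at least 100 over all 4 lung libraries, and these 9396 genes are described here. Because the mean covers all 4 libraries, a gene that was high in a single library could pass the filter through that library, and such a gene had to differ. The 3 rows just inside the filter were Lysmd1, Sec22c and Thsd7a, at means of 100.06 to 100.09, and the 3 just outside it were Polr3e, Cdk20 and Usp11, at 99.97 to 99.99.

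All mice were male CDF1 mice, given in the labels as postnatal day 28, which the methods give as the age at purchase. In the tumor groups the mice had a tail vein injection of CT26, a mouse colon cancer cell line, a route that carries cells to the lung. Exercising mice ran on a treadmill at high intensity. Normal control mice had neither, normal exercise mice [E(+)T(-)] ran without tumor, cancer control mice [E(-)T(+)] had tumor without running, and cancer exercise mice had both. The study names a representative mouse of each group for muscle and calls the lung analysis similar, and the number of mice behind a lung library is not stated outright. Each group is 1 library. No difference below therefore has a replicate check. Exercise and tumor both separate E(+)T(+) from E(-)T(-), so their parts cannot be told apart within this difference, and the E(+)T(-) and E(-)T(+) libraries are given beside it. Those 2 libraries are set against the same normal control library. Where 4 values of a gene follow each other, they stand in library order, which is normal control, normal exercise, cancer control and then cancer exercise.

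The lung is lined by flat type 1 and surfactant-producing type 2 alveolar cells over a dense capillary bed, with secretory club cells and ciliated cells in the airways. It also holds resident alveolar macrophages and a large pool of blood. Neutrophils, short-lived granulocytes made in bone marrow, linger in lung capillaries and can rise in blood with inflammation, tumor growth or exertion. They carry S100A8 and S100A9, a calcium-binding pair that fills their cytosol, granule proteins made early in their life (Ngp, Camp, Mmp8) and, in mice, a family of stefin A protease inhibitors (the Stfa genes).

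Libraries were primed at the poly(A) tail, and 9354570 to 13367994 reads were assigned to genes in each, 13017458 in the normal control and 13367994 in E(+)T(+). Differences are given as log2 of the normalized read count plus 1, E(+)T(+) minus E(-)T(-), and as folds on that scale. Intervals are 95% exact intervals of the read ratio and cover counting error alone. Lung markers were high in both libraries, with Sftpc (surfactant protein C) at 116987 normalized reads in the normal control and 81470 in cancer exercise, and Scgb1a1 (the club cell secretory protein) at 428518 and 526837. Of 26 skeletal muscle genes, Myh7 alone passed the filter. Hemoglobin genes took 31.43% of the reads of cancer exercise and 14.33% of those of the normal control, with 14.17% for normal exercise and 1.43% for cancer control, so the libraries differed in red cell RNA. In such bulk samples, fewer cells of a type and less RNA per cell cannot be told apart.

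Sequences upstream of 6 genes described below are printed here, 250 bases before to 50 after a gene start, from RefSeq on build GRCm38.p6. Per1 has 2 starts in the table, and both are shown. Stfa2 stood farthest above the control and S100a8 had the highest level of the neutrophil genes in E(+)T(+), Ngp is a neutrophil granule gene, Alas2 opens heme synthesis in red cell precursors, Per1 is a clock gene chosen after its values were seen and Thrsp stood farthest below the control. Capitals mark 4 motifs searched on both strands: the C/EBP-type motif TTNNGCAAT, the motif of GATA factors with letters AGATAA, the E-box motif CACGTG and the TATA box motif TATAAA. No base of these sequences belonged to more than 1 motif.
Stfa2 (chr16:36408314-36408613, minus strand): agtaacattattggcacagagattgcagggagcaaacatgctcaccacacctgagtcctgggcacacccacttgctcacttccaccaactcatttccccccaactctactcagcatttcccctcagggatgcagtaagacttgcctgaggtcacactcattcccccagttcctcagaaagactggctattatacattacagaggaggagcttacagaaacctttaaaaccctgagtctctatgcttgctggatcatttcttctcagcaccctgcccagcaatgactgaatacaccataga
S100a8 (chr3:90668821-90669120, plus strand): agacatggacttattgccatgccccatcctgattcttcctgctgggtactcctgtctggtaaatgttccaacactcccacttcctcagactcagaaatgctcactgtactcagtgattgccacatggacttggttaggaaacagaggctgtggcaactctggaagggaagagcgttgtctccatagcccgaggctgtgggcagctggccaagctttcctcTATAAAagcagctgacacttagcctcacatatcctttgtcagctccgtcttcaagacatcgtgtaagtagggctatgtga
Ngp (chr9:110419558-110419857, plus strand): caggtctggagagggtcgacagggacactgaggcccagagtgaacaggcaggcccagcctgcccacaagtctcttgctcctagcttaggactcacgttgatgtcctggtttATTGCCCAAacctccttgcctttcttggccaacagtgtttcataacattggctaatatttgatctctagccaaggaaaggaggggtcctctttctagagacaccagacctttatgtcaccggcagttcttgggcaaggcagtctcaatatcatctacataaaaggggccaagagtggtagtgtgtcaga
Alas2 (chrX:150547167-150547466, plus strand): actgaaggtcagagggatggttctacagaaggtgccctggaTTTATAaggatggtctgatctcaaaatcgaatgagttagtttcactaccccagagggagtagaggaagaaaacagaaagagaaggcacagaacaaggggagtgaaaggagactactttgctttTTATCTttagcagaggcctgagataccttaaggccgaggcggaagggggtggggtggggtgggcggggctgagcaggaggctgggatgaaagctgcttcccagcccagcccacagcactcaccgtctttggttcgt
Per1 (chr11:69098699-69098998, plus strand): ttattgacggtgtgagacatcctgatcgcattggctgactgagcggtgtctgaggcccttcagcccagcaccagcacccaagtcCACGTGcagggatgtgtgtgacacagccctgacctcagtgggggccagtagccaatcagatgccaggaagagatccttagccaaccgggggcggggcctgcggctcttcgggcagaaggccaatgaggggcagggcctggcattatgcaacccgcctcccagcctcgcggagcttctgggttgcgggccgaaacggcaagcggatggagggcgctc
Per1, second start (chr11:69099902-69100201, plus strand): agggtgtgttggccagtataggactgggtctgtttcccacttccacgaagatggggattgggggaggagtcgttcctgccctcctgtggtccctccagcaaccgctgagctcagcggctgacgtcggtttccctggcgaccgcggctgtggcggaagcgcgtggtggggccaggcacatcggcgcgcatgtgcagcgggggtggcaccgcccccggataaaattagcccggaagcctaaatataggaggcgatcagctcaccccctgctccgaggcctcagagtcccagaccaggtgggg
Thrsp (chr7:97417501-97417800, minus strand): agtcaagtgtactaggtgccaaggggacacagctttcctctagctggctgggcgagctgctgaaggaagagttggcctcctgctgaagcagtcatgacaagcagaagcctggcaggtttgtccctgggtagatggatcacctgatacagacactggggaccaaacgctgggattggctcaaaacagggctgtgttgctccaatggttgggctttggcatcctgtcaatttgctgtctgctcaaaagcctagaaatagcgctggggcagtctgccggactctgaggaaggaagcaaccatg
The C/EBP-type letters were in 2.18% of all 32851 promoters of the table, the GATA letters in 11.2%, the E-box in 7.15% and the TATA box in 13.6%. Among genes that passed the filter, 7151 of 9392 symbols had a promoter in the table, and the shares over their 9213 promoters were 1.39%, 6.15%, 9.93% and 7.51%. Among 25 promoters of the mature neutrophil genes, 9 held a TATA box (36.0%), 6 the GATA letters, 1 the E-box and none the C/EBP-type letters. Among 13 promoters of granule genes, 4 held the GATA letters (30.8%), 3 a TATA box (23.1%) and 2 the C/EBP-type letters (15.4%). The GATA letters were in 6 of 27 promoters of the erythroid genes (22.2%), a share no higher than in either neutrophil list, and the E-box was in 5 of 22 promoters of the clock genes (22.7%). The second Per1 promoter held none of the 4 motifs. These are letter matches within the printed window only.

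Of the 9396 genes, 985 (10.5%) were 2-fold or more higher in E(+)T(+) than in E(-)T(-), 843 (8.97%) were 2-fold or more lower, and 3328 (35.4%) lay near the control, at a log2 difference of at most 0.32 in either direction. The other 4240 (45.1%) lay between these limits. Where a list count below has no share beside it, these shares of all genes are its measure. The median difference over all genes was -0.005 and the median absolute difference was 0.48. Past 8-fold the 2 directions were unequal, with 143 genes higher and 9 lower. On the same genes, E(-)T(+) had 1724 higher and 1877 lower than the control by 2-fold, with 2222 near it, and E(+)T(-) had 158 higher and 42 lower, with 6447 near it. Counting error was small at this depth: the interval excluded no difference for 1827 of the 1828 genes past 2-fold and lay wholly beyond 2-fold for 1144.

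The split into higher and lower genes moved with the scaling. Of the genes past 2-fold, 53.9% were higher with the deposited scaling, which sets trimmed means equal. Scaled by library totals alone, where the hemoglobin reads count toward the total, the median of all genes was -0.50 and 18.4% were higher (510 higher, 2257 lower). With totals that leave out 6 hemoglobin symbols the median was -0.18 and 39.1% were higher (773 higher, 1202 lower). Genes near the control numbered 3328 with the deposited scaling, 2448 with library totals alone and 3217 with totals that leave out hemoglobin. Differences below, and nearness to the control, are relative to the deposited scaling.

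**Figure D1:**
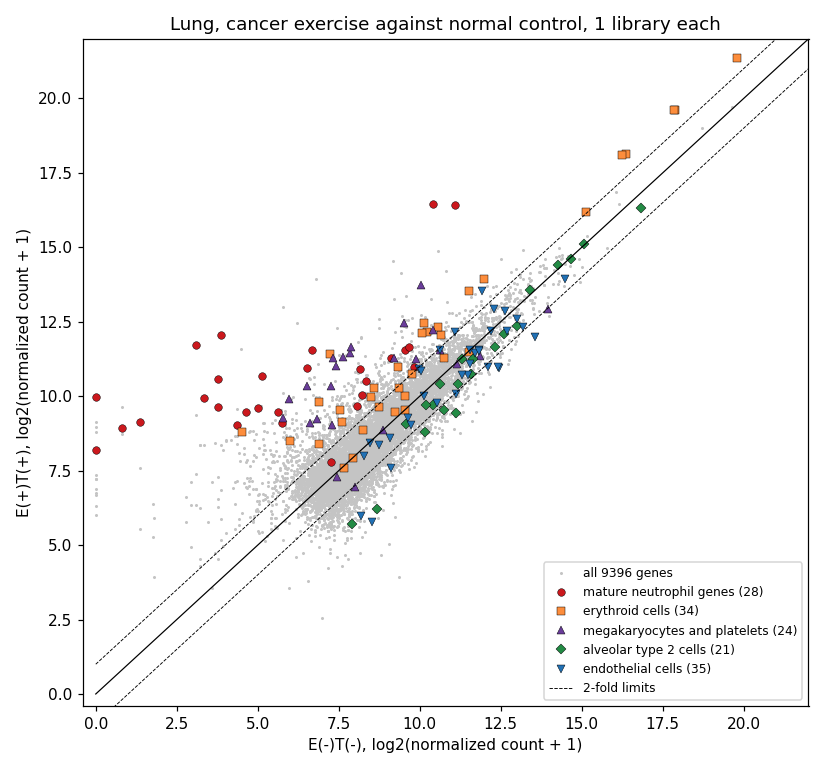
Each grey point is 1 of 9396 genes, with log2(normalized count + 1) of E(-)T(-) on the horizontal axis and of E(+)T(+) on the vertical axis, 1 library each. Solid line, equal levels; dashed lines, 2-fold limits. Mature neutrophil genes stand far above the upper limit (27 of 28 past it), 23 of 34 erythroid and 17 of 24 platelet genes are past it, and most alveolar type 2 and endothelial genes lie between the 2-fold limits, with 2 endothelial genes above them.

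The split between higher and lower genes also differed by level. Among 3755 genes with a mean of 100 to 300 normalized reads, 412 were 2-fold higher and 499 (13.3%) were 2-fold lower. Among 241 genes with a mean of 5000 or more, 15.4% were higher and 3.32% lower, and the median difference was 0.31.

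Mature neutrophil genes had the highest median of all lists. Of 28 mature neutrophil genes that passed the filter, of 36 in the files, 27 were 2-fold or more higher (10.5% of all genes were), none was 2-fold lower and none lay near the control, with a median difference of 4.77 against -0.005 over all genes. Stfa1, Stfa2, Stfa3 and BC117090 of this list passed the filter only through the tumor-bearing libraries and so had to differ. The lists were also chosen with earlier results known, so the shares beside these counts describe and do not test. Granule genes gave 13 of 16 higher, none lower and a median of 3.63. With a filter of 1000 in place of 100 these medians were 2.18 and 2.93, below the 3.75 of acute phase genes under that filter. S100a8 stood at 1366, 4299, 3909 and 90334 normalized reads in library order, a 66.1-fold difference (log2 6.05, interval 5.98 to 6.12). S100a9 stood at 2155, 6561, 4184 and 88598 in the same order, a 41.1-fold difference. Both were thus modestly higher in each single-factor library and far higher where exercise and tumor were combined.

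The stefin A family and its neighbors led the list. Stfa2 had 0, 4, 164 and 850 reads in library order, which is at least 390-fold higher in E(+)T(+) against a floor of 3 reads per library. Stfa3 had 0, 5, 125 and 248 reads (at least 114-fold), and Stfa1 had 2, 12, 104 and 479 (log2 7.76, interval 6.50 to 11.41). BC100530 and BC117090, also of this family, had 9 and 1 reads in the control and 2893 and 422 in E(+)T(+). These genes are closely related copies on chromosome 16, and the split of reads among them is uncertain, but all of them were highest in E(+)T(+). Il1r2, the interleukin 1 decoy receptor, stood at 13.5, 77.1, 406.6 and 4296 normalized reads (log2 8.21, interval 7.60 to 9.11).

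Single granule genes were among the farthest. Mmp8, neutrophil collagenase, stood at 54.3, 191.0, 448.1 and 8163 normalized reads in library order (log2 7.21, interval 6.88 to 7.61). Retnlg, a resistin-like protein of neutrophils, stood at 109.5, 633.7, 709.2 and 15803 (log2 7.16). Ngp, a granule protein made before neutrophils leave the marrow, stood at 21.1, 160.7, 166.6 and 3048 (log2 7.11). For each of the 3, both single-factor libraries lay above the control and far below E(+)T(+). Lyz2 (lysozyme), also high in macrophages, went the other way, at 9325 normalized reads in the normal control and 5144 in E(+)T(+) (log2 -0.86). The least displaced mature gene was Fpr1, at 0.54. Msrb1, an abundant selenoprotein of neutrophils, lay near the control in E(+)T(-) (0.06) and E(-)T(+) (-0.07) and at 1.99 in E(+)T(+).

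Platelet and red cell genes were higher along with them. Of 24 megakaryocyte and platelet genes, 17 were 2-fold or more higher and 2 lower, with a median of 2.47 (1.59 with a filter of 1000). Pf4, platelet factor 4, stood at 1040, 1563, 4665 and 13643 normalized reads in library order (log2 3.71). Itgb3, the beta chain of the fibrinogen receptor, stood at 158.8, 304.1, 265.3 and 2486 (log2 3.96), and Gp5 of the von Willebrand receptor at 61.9, 113.9, 105.3 and 954.4 (log2 3.92). In contrast, Sdpr, a caveola protein that endothelium also makes, was the most abundant gene of the list and lay at -1.04.

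Erythroid genes numbered 23 higher, none 2-fold lower and 5 near the control, of 34, with a median of 1.60. Hba-a1, alpha globin, stood at 909679, 904022, 84460 and 2669243 normalized reads in library order (log2 1.55). Among the farthest erythroid genes was Slc4a1 (band 3, the anion exchanger of the red cell membrane), with 177, 113, 17 and 2326 reads and a difference of 4.17. Beta globins are listed as overlapping pairs (Hbb-bs with Hbb-b1, Hbb-bt with Hbb-b2) that may share reads, and their differences of 1.73 to 1.85 are not independent. Alas2, the first enzyme of heme synthesis in these cells, was chosen after its values were seen and stood at 4022, 4201, 453.8 and 15825 (log2 1.98), and its promoter is printed above. The single-factor libraries were unlike each other: the erythroid median was 0.09 in E(+)T(-) and -1.13 in E(-)T(+). Neutrophil, platelet and red cell RNA thus moved together in the 1 library of E(+)T(+), and the part that blood held in the lung at sampling had in these differences was not tested.

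Genes of monocytes and interstitial macrophages were 2-fold higher for 22 of 26, with none lower and a median of 2.20. F13a1, the coagulation factor XIII A chain made by monocytes and platelets, stood at 290.4, 330.5, 2242 and 4000 normalized reads in library order (log2 3.78). Vcan, a proteoglycan of classical monocytes, stood at 53.4, 28.4, 329.8 and 1101 (log2 4.34). For C1qa, a complement gene of macrophages, the cancer control library was the higher one, with 329, 349, 3711 and 1543. It lay above the normal control in E(+)T(+) by 2.23.

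**Figure D2:**
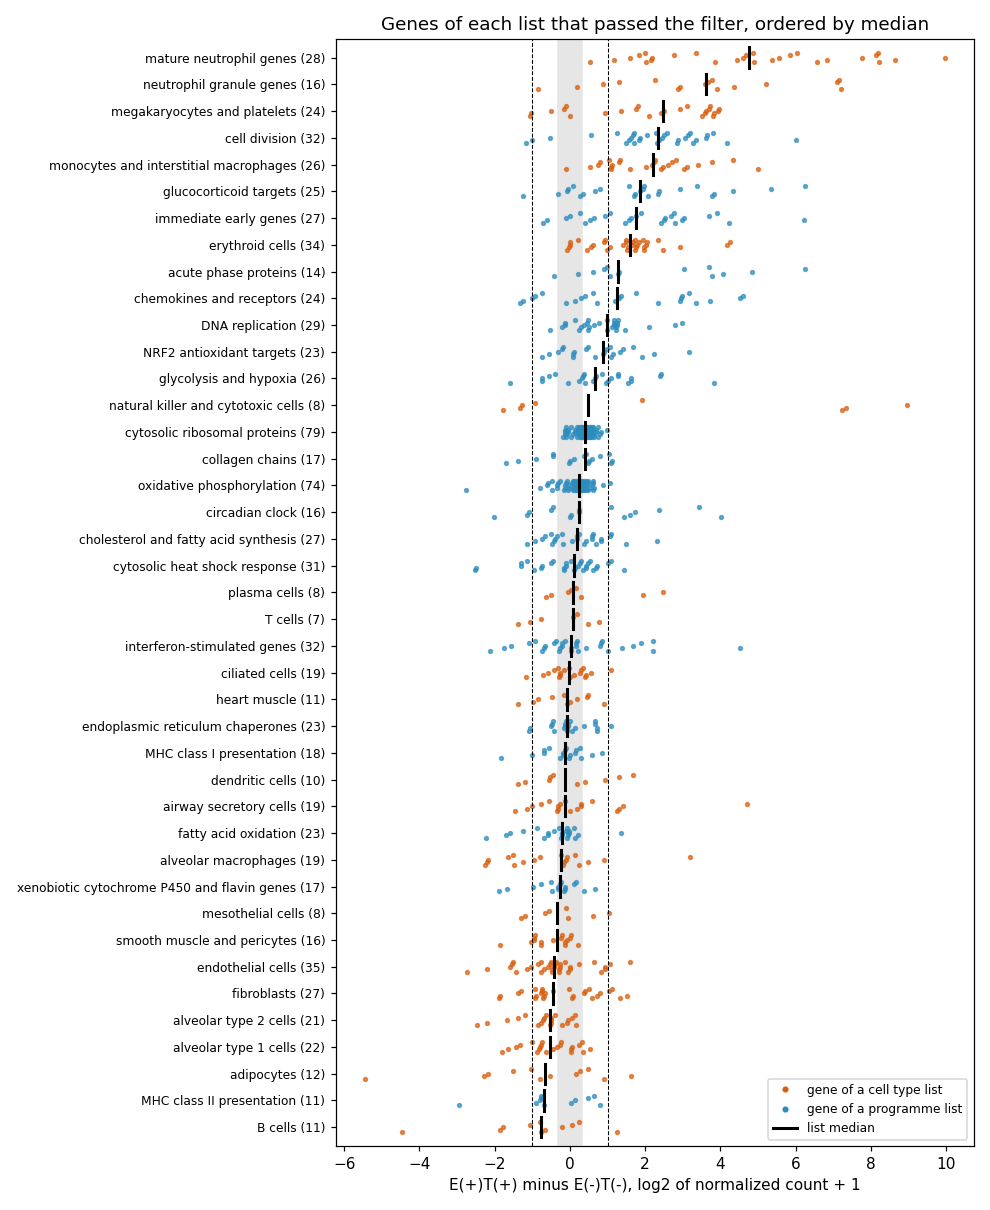
Each point is the difference of 1 gene, E(+)T(+) minus E(-)T(-) in log2 of the normalized count plus 1, for lists with 7 or more genes past the filter (number in parentheses). Black bars, list medians; grey band, near the control; dashed lines, 2-fold limits. Blood and marrow lists and cell division lie to the right, and lung epithelial, endothelial and lymphocyte lists have medians from -0.76 to 0.49.

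Lists of resident lung cells had medians between -0.54 and -0.02 with the deposited scaling. Alveolar type 2, type 1, endothelial and fibroblast lists each had a smaller share of genes near the control than the 35.4% of all genes, ciliated and smooth muscle lists had a larger one, and airway secretory genes had about the same share. None of 21 alveolar type 2 genes was 2-fold higher (10.5% of all genes were) and 5 were 2-fold lower (8.97%). Near the control lay 6 of the 21, and the list median was -0.52. With the deposited scaling, 3 of its 4 most abundant genes sat on the control. Sftpa1 stood at 34468 normalized reads in the normal control and 35511 in E(+)T(+), Sftpb at 25798 and 24695, and the chemokine Cxcl15 at 19755 and 21693. Sftpc lay at -0.52. All 4 were far lower in E(-)T(+), where Sftpa1 stood at 5744, Sftpb at 5942, Cxcl15 at 2428 and Sftpc at 12347. Other type 2 genes were low in both tumor-bearing libraries: Nkx2-1, the transcription factor that sets lung epithelial identity, had 284, 203, 37 and 44 reads in library order (log2 -2.21), and Ppp1r14c had 482, 441, 32 and 63 (log2 -2.46).

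Type 1 genes gave a median of -0.54 with 4 of 22 lower (8.97% of all genes were) and none higher (10.5%). Ager, the receptor that marks type 1 cells, lay at -0.27 (25337 and 21012 normalized reads), and Cldn18, their tight junction claudin, at -1.32 (16406 and 6566). Airway secretory genes gave a median of -0.12. Of 19, 4 were higher (10.5% of all genes were), 3 lower (8.97%) and 7 near the control (35.4%). Scgb1a1 lay at 0.30 and Cyp2f2, the club cell cytochrome P450, at -0.31. Retnla, a resistin-like protein that alternatively activated macrophages also make, stood apart from its list at 692, 1224, 2942 and 18015 normalized reads (log2 4.70). Ciliated genes had 10 of 19 near the control and a median of -0.02 (-0.94 with a filter of 1000), and their most abundant genes Sec14l3 and Tppp3 lay at -0.71 and -1.18. The same 19 genes had a median of -1.79 in E(-)T(+).

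Of 35 endothelial genes, 27 had a difference below 0. Among the 35, 8 were 2-fold lower (8.97% of all genes were), 2 were 2-fold higher (10.5%) and 9 lay near the control (35.4%). Their median was -0.41, against -3.19 for cancer control and 0.01 for normal exercise. Epas1, the oxygen-regulated factor HIF-2 alpha, stood at 22978, 19906, 2873 and 15781 normalized reads in library order. Tmem100, a bone morphogenetic protein target of lung capillaries, stood at 8277, 8670, 815 and 6220. Calcrl, the adrenomedullin receptor, lay lower (12034 and 4016, log2 -1.58). Aplnr, the apelin receptor, lay at -2.21 and Sox7, an endothelial transcription factor, at -2.74. Lyve1, a hyaluronan receptor of lymphatic endothelium and of some macrophages, was higher at 3909 and 11803 (log2 1.59).

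Stromal lists were unlike each other. Of 27 fibroblast genes, 4 were higher (10.5% of all genes were), 4 lower (8.97%) and 3 near the control (35.4%). Their median was -0.46 (-0.29 with a filter of 1000), and Inmt, a methyltransferase of lung fibroblasts, lay at -0.66. Their abundant collagen Col1a2 lay at 0.39 in E(+)T(+), with 2622 normalized reads in the control, 17953 in E(-)T(+) and 3431 in E(+)T(+). Smooth muscle and pericyte genes had 8 of 16 near the control and a median of -0.34 (-0.14 with a filter of 1000), with Acta2 at -0.09 and Mylk at -0.14, and the matrix protein Postn lowest at -1.86. Across 17 collagen chains the median was 0.39 (0.59 with a filter of 1000 and -0.11 when scaled by library totals alone). Of these chains, 3 were higher (10.5% of all genes were), 2 lower (8.97%) and 3 near the control (35.4%).

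Alveolar macrophage genes lay lower than those of monocytes. Of 19, 7 were 2-fold lower, 7 lay near the control and 1 was higher, with a median of -0.23 (-0.78 with a filter of 4 and 0.08 with a filter of 1000). Fabp4, a fatty acid carrier that is also in the adipocyte list, stood at 2116, 729, 6255 and 471 normalized reads in library order (log2 -2.16). Fabp1 lay at -2.27. Marco, a scavenger receptor, was the single higher gene, at 35.6, 24.7, 702.3 and 330.8 (log2 3.18).

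Lymphocyte genes were scarce. Only 7 of 33 T cell genes in the files passed the filter, and their median was 0.08, with Cd2 at -1.06 and Cd3d at 0.49. With a filter of 4 in place of 100, 31 T cell genes gave a median of -0.57, with 10 lower and 1 higher. Over all rows at that filter, 14.4% were lower and 14.8% higher. Of 11 B cell genes 4 were lower and 1 higher, with a median of -0.76. Cd74, the invariant chain of MHC class II, lay at -0.81 (4308 and 2463 normalized reads), and Cr2, complement receptor 2 of mature and follicular B cells, had 149, 325, 17 and 4 reads (log2 -4.46, interval -6.65 to -3.37). MHC class II genes had a median of -0.70, with H2-Aa at 9108, 11074, 467 and 5311 normalized reads. Plasma cell genes had a median of 0.09, with 2 of 8 higher, none 2-fold lower and 4 near the control. Xbp1, a factor of secretory cells, lay at -0.50 and Txndc5, a chaperone, at -0.65, while Jchain, the joining chain of secreted IgA and IgM, stood at 146, 104, 52 and 812 (log2 2.47).

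The list of natural killer and cytotoxic genes depended on the filter. Among 8 genes of mean 100 or more, 4 were higher and 3 lower, with a median of 0.49. Those higher included Gzmf, Gzmd and Gzmg, granzymes of 1 gene cluster. With a filter of 4, 25 genes gave a median of -1.28, with 14 lower and 6 higher (14.4% and 14.8% over all rows at that filter). Gzma, granzyme A, stood at 983, 679, 397 and 287 normalized reads in library order. Under the filter, and chosen after their values were seen, were the receptors Ncr1 with 165, 132, 27 and 14 reads and Klrb1c with 62, 65, 3 and 0 reads. Gzma, Ncr1 and Klrb1c were thus lower in both tumor-bearing libraries than in either library without tumor.

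Several of the genes farthest above the control were higher still in E(-)T(+). Krt20, an intestinal keratin, had 0, 46, 2696 and 476 reads in library order, at least 218-fold higher in E(+)T(+) than the floor. Crabp1, a retinoic acid carrier, had 0, 141, 10478 and 382 reads (at least 175-fold), and Gzmf had 0, 37, 1784 and 427 (at least 196-fold). Relative to E(-)T(+), the E(+)T(+) level was 18.8% for Krt20, 3.89% for Crabp1 and 25.6% for Gzmf. Gzmd and Gzmg stood at 25.6% and 28.5%, AA467197 at 21.6% and 3110039M20Rik at 9.42%. Unlike these, Stfa2 stood at 552% and Bcl2l15 at 487% of E(-)T(+). All 7 of the former genes also had reads in E(+)T(-), whose mice received no tumor cells, at 0.642% to 2.18% of E(-)T(+). How reads of these genes came into that library was not tested.

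Cell division genes lay above the control. Of 32 that passed, 28 were 2-fold higher and 2 lower, with a median of 2.33 in E(+)T(+) and 4.24 in E(-)T(+). Top2a, topoisomerase 2 alpha, stood at 118.8, 258.0, 2707 and 1007 normalized reads in library order (log2 3.07), and Birc5, survivin, at 45.8, 105.6, 2457 and 583.5 (log2 3.64). Tubb5, a tubulin used by all cells, lay at 0.57. DNA replication genes were nearer, with 13 of 29 higher, none 2-fold lower, 6 near the control and a median of 0.98 (0.48 with a filter of 1000). Tk1 (thymidine kinase) lay at 2.98 and Rfc1, a clamp loader, at -0.22.

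**Figure D3:**
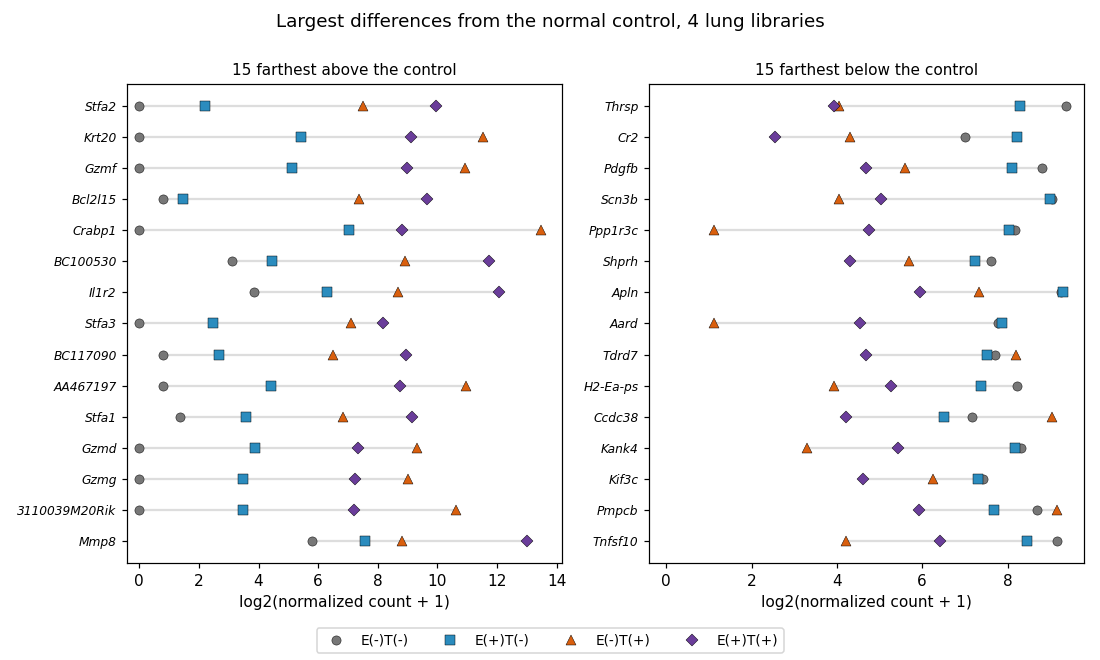
The 15 genes farthest above (left) and farthest below (right) E(-)T(-) in E(+)T(+), with log2(normalized count + 1) in each of 4 libraries, 1 symbol per library. In E(+)T(+) the Stfa genes, Bcl2l15, Il1r2 and Mmp8 are the highest of the 4 libraries, whereas Krt20, Crabp1 and the Gzm genes are highest in E(-)T(+).

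The genes farthest below the control were led by Thrsp, a lipogenic nuclear protein of fat and liver, with 776, 343, 14 and 12 reads in library order (log2 -5.45, interval -6.51 to -4.74). Pdgfb, the platelet-derived growth factor made by endothelium, had 530, 297, 43 and 21 reads (log2 -4.14). Apln, the ligand apelin of endothelial tip cells, had 712, 683, 146 and 52 (log2 -3.29), and its receptor Aplnr is given above. These 3 genes were low in both tumor-bearing libraries. Scn3b (-4.01), Ppp1r3c (-3.42), Aard (-3.23), Kank4 (-2.88) and Tnfsf10 (-2.76) were also low in both, and each was lower in E(-)T(+) than in E(+)T(+).

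Tdrd7, Ccdc38 and Pmpcb followed another pattern. Tdrd7, a Tudor domain protein of RNA granules, had 243, 197, 267 and 21 reads in library order (log2 -3.01). Ccdc38 had 169, 99, 484 and 15 (log2 -2.95), and Pmpcb, the beta subunit of the mitochondrial processing peptidase, had 487, 222, 518 and 51 (log2 -2.77). Sdhd, a succinate dehydrogenase subunit, had 110, 68, 428 and 11 (log2 -2.75). All 4 were lowest in E(+)T(+) and highest in E(-)T(+). A read marks the 3' end of a transcript, so a shift between alternative ends and a change in level cannot be told apart for such genes.

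Some genes sat on the normal control in E(+)T(+) while E(-)T(+) lay far from it. The 10 largest of these were Tenm4, Prune2, Ccnjl, Matn2, Krt79, Fxyd1, Acoxl, Scel, Ocln and Gucy1b3. Ccnjl, a cyclin J-like gene, stood at 130.9, 140.6, 5.55 and 130.9 normalized reads in library order, with an interval of -0.36 to 0.36 for the difference. Scel (sciellin, of the type 1 cell envelope) stood at 534.6, 446.6, 36.3 and 441.9, and Ocln (occludin, of tight junctions) at 146.2, 146.1, 9.94 and 153.1. Gucy1b3, the beta subunit of the nitric oxide receptor, stood at 1096, 1196, 82.3 and 931.5. High in E(-)T(+) instead were 3 of the 10. Tenm4, a teneurin, had 13, 11, 524 and 9 reads, Prune2 had 40, 37, 684 and 36, and Matn2, a matrix matrilin, had 43, 67, 682 and 29. At 9 to 13 reads, the interval of Tenm4 ran from -1.48 to 1.27. Scaled by library totals alone, 8 of the 10 left the limit of 0.32, at -0.43 (Ocln) to -0.77 (Scel), and Prune2 and Acoxl stayed within it at -0.18. With totals that leave out hemoglobin, 3 left it (Fxyd1 at -0.37, Gucy1b3 at -0.41 and Scel at -0.45).

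Conversely, some genes lay away from the control in E(+)T(+) and near it in both single-factor libraries. Samd14, a partner of the KIT receptor in red cell precursors, had 55, 44, 47 and 303 reads in library order (log2 2.90, interval 2.50 to 3.36). Clec1b, the platelet podoplanin receptor CLEC-2, had 132, 143, 95 and 519 (log2 2.42). Pycard, the inflammasome adaptor ASC, had 150, 124, 117 and 451 (log2 2.04), and Zyx (zyxin, of focal adhesions) had 787, 906, 595 and 2316 (log2 2.02). Sirpb1b (2.03), Msrb1 (1.99) and Dusp2 (1.89) were higher as well, and Slc25a25 had 151, 173, 105 and 442 reads. Kif1bp alone was lower, with 284, 231, 210 and 49 reads (log2 -2.05). Both neutrophil and platelet list genes were among these.

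**Figure D4:**
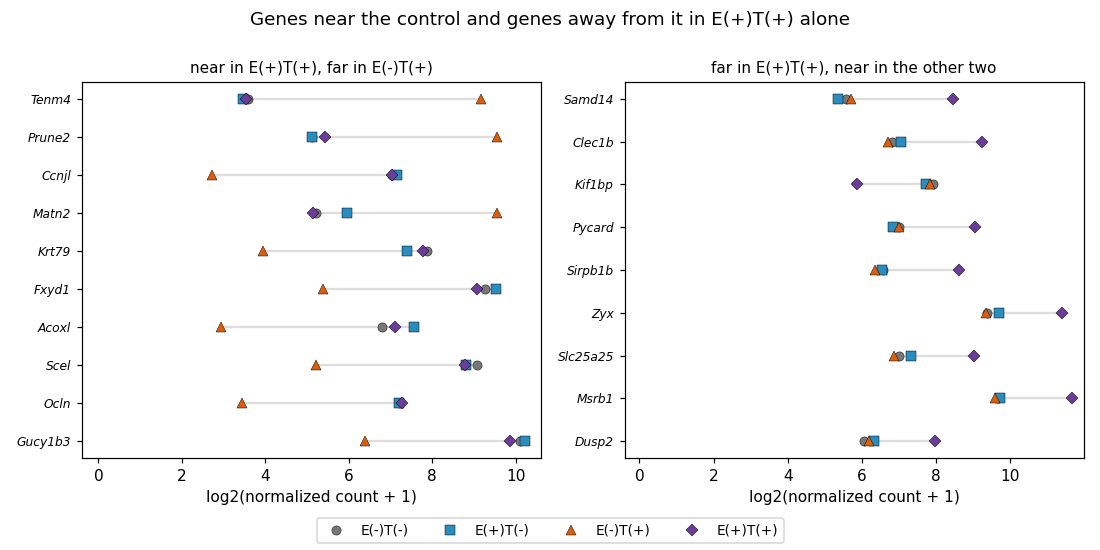
Left, the 10 genes near E(-)T(-) in E(+)T(+) with the largest difference in E(-)T(+). Right, 9 of the 10 genes of largest difference in E(+)T(+) among those near the control in E(+)T(-) and E(-)T(+). The axis is log2(normalized count + 1), 1 symbol per library. On the left the diamond of E(+)T(+) covers or neighbors the circle of E(-)T(-), and on the right it stands 1.89 to 2.90 away.

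Of 25 glucocorticoid target genes 16 were 2-fold higher and 1 lower, with a median of 1.86. Mt2 and Mt1, metal-binding metallothioneins that glucocorticoid, zinc and cytokines induce, were the most abundant of them. Mt2 stood at 576, 2378, 122294 and 23591 normalized reads in library order (log2 5.35), and Mt1 at 1504, 2262, 59227 and 30235 (log2 4.33). Cdkn1a, the cell cycle inhibitor p21, lay at 3.38, and Nfkbia, the inhibitor of NF-kappa B, at 2.08. Tsc22d3 and Fkbp5 are classical targets too, and Tsc22d3 sat at -0.09. Fkbp5, named after its values were seen, stood at 222.5, 371, 2987 and 732 (log2 1.71).

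Acute phase genes gave 9 of 14 higher, none 2-fold lower and a median of 1.29. The median was 3.03 with a filter of 4 (19 of 25 higher, against 14.8% of all rows) and 3.75 with a filter of 1000. Saa3, a serum amyloid A made outside the liver, stood at 73.0, 182.8, 8877 and 5598 normalized reads in library order (log2 6.24). Serpina3n, a protease inhibitor, stood at 173.2, 198.3, 1976 and 4997 (log2 4.84), and Lrg1, a leucine-rich glycoprotein of neutrophils and venules, at 594.5, 1009, 3408 and 9911 (log2 4.06). Chemokines and receptors gave 13 of 24 higher and 3 lower. With a filter of 4 they gave 20 of 47 higher (14.8% of all rows were) and 10 lower (14.4%). Cxcl2, a neutrophil attractant, had 37, 40, 71 and 671 reads (log2 4.60), and Cxcl10, an interferon-induced T cell attractant, had 16, 18, 128 and 282 (log2 4.51). Interferon-stimulated genes went both ways, from -2.12 to 4.51 about a median of 0.03. Of 32, 7 were higher, 4 lower and 11 near the control, a share close to the 35.4% of all genes. With a filter of 4, 16 of 46 interferon-stimulated genes were higher (14.8% of all rows were) and 4 lower (14.4%), with a median of 0.20.

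Immediate early genes, which respond within minutes to stimulation and to tissue handling, gave 18 of 27 higher, none 2-fold lower and a median of 1.75 (0.95 with a filter of 1000). Jund stood at 3075, 4025, 2150 and 10332 normalized reads in library order (log2 1.75), and Maff, a small Maf factor, at 116.3, 304.9, 376.9 and 2180 (log2 4.22). Fosl1 had 2, 26, 1020 and 165 reads and thus belonged with the genes highest in E(-)T(+). Klf2, a flow-sensing endothelial factor, lay below the control at -0.61. Neutrophils also express several of these genes, and the part of cell makeup or of handling in these values was not tested.

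Heat shock genes went both ways about a median of 0.11. Of 31, 3 were higher (10.5% of all genes were), 5 lower (8.97% of all genes) and 10 near the control (35.4% of all genes). Hspa1a and Hspa1b, near-identical inducible HSP70 genes that may share reads, were the lowest of the list. Hspa1a had 468, 4712, 21 and 60 reads in library order (log2 -2.48), and Hspa1b had 328, 4056, 54 and 41 (log2 -2.51). Both genes were thus highest in the normal exercise library and below the normal control in both tumor-bearing libraries. Hspb1 stood at 3866, 21056, 1277 and 5166 normalized reads (log2 0.42). Endoplasmic reticulum chaperones had a median of -0.08, with 11 of 23 near the control (35.4% of all genes).

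Clock genes spread widely about a median of 0.24, with 7 of 16 higher, 3 lower and 4 near the control. Nfil3, a repressor that opposes Dbp, stood at 95.1, 180.0, 392.4 and 1562 normalized reads in library order (log2 4.02), and Nr1d1, the nuclear receptor REV-ERB alpha, at 87.4, 96.4, 712.1 and 961.1 (log2 3.44). Per1 and Arntl were chosen after their values were seen. Per1, whose promoter is printed above, stood at 248.0, 416.9, 517.1 and 1291 (log2 2.38), and Arntl, the activator BMAL1 that REV-ERB alpha represses, at 164.1, 133.2, 110.7 and 39.9 (log2 -2.01). Per2 (0.02), Rora (-0.01) and Tef (0.23) sat on the control with the deposited scaling. Scaled by library totals alone, they lay at -0.48, -0.51 and -0.27. The hour of sampling of each group was not given in the sources used here.

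**Figure D5:**
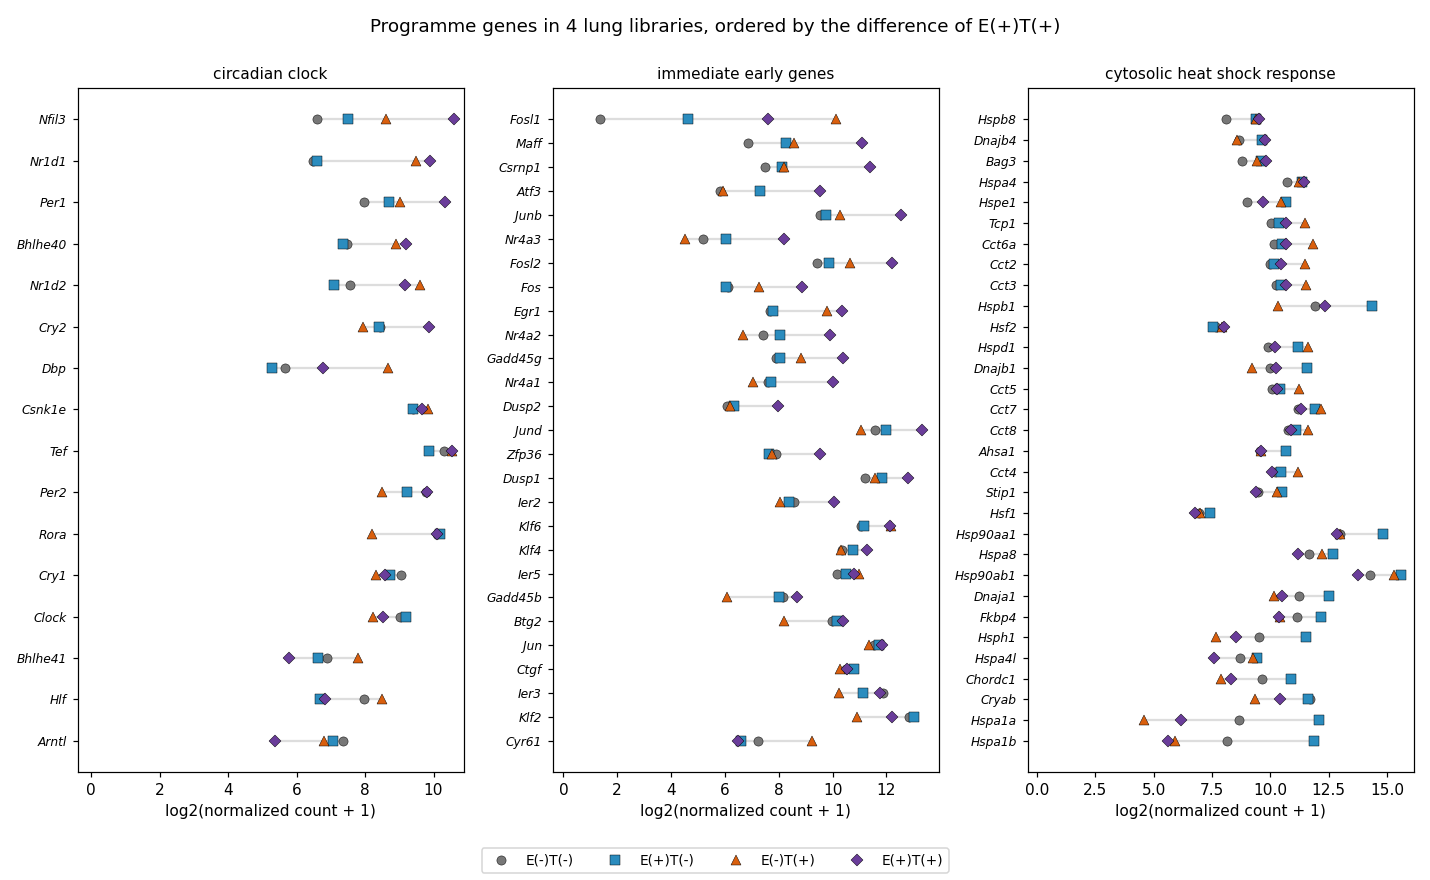
Clock genes (left), immediate early genes (middle) and heat shock genes (right) in 4 libraries, as log2(normalized count + 1), ordered from the highest to the lowest difference of E(+)T(+) from E(-)T(-). Diamonds of E(+)T(+) lead most immediate early genes, while squares of E(+)T(-) lead the inducible heat shock genes.

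Ribosomal protein and oxidative phosphorylation genes were mostly within 2-fold. None of 79 ribosomal protein genes was past 2-fold (19.5% of all genes were). Near the control lay 27 of the 79, a share close to the 35.4% of all genes. Their median was 0.40, against 1.05 in E(-)T(+). Of 74 oxidative phosphorylation genes, 42 lay near the control, with a median of 0.25, and Sdhd and Cox5b were the only ones past 2-fold. These positive medians turned to -0.10 and -0.25 when scaled by library totals alone. Glycolysis and hypoxia genes had a median of 0.68 with 10 of 26 higher (10.5% of all genes were). They were led by Ddit4, an mTOR inhibitor that glucocorticoid and hypoxia induce, at 431, 1256, 3035 and 6173 normalized reads in library order (log2 3.84). Antioxidant targets of NRF2 had a median of 0.89 (0.27 with a filter of 1000) with 9 of 23 higher, and Hmox1, heme oxygenase 1, at 23.7, 72.5, 208.1 and 218.5 (log2 3.15). Fatty acid oxidation genes had 13 of 23 near the control (35.4% of all genes were) and a median of -0.21 (0.00 with a filter of 1000). Cholesterol and fatty acid synthesis genes had a median of 0.20 (-0.38 with a filter of 1000), and xenobiotic cytochrome P450 and flavin genes a median of -0.25. Adipocyte genes had 5 of 12 lower, among them Adipoq (adiponectin) at 327, 113, 77 and 48 reads (log2 -2.29), and a median of -0.66 (-0.16 with a filter of 1000). Lung samples can carry fat and heart tissue, and 11 heart muscle genes had a median of -0.07 (-0.22 with a filter of 4). None of the 11 was higher (10.5% of all genes were) and 1 was lower (8.97% of all genes). Among the heart muscle genes, Myh6 lay at 0.49, Actc1 at -0.99 and Myl7 at -1.38.

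Across all 43 lists, 10 had a median of 1 or more and none a median of -1 or less. With a filter of 4, natural killer and cytotoxic genes and adipocyte genes each had a median of -1.28. Scaled by library totals alone, 8 had a median of 1 or more and 6 of -1 or less, and 10 lists changed sign. The 6 were alveolar type 2 (-1.02), alveolar type 1 (-1.04), B cell (-1.25), MHC class II (-1.20) and adipocyte genes (-1.16) and the single skeletal muscle gene (-1.01). The 10 that changed sign all had medians between 0 and 0.49 before. Those were T cells, natural killer and cytotoxic cells, plasma cells, ribosomal proteins, oxidative phosphorylation, interferon-stimulated genes, heat shock, clock, collagen, and cholesterol and fatty acid synthesis. Neutrophil, platelet, monocyte, erythroid, cell division, glucocorticoid and immediate early medians stayed at 1.10 or more under that scaling. The lists held 898 of the 9396 genes (9.56%), and 72 of 1289 listed genes were in more than 1 list.

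An additive fit over all 4 libraries, in which exercise and tumor each add a fixed amount, gave 45 of 9396 genes (0.479%) at an adjusted p under 0.05 by limma, 44 of them higher. Its spread is the departure from additivity in 1 residual degree of freedom and not a replicate spread. Il1r2 (adjusted p = 0.000251), Retnlg (0.000296), Mmp8 (0.000464), Ngp (0.000482) and Saa3 (0.00065) were among these, and Thrsp (0.0247) was the only lower gene. Under an unadjusted p of 0.05 there were 577 genes. No gene passed when only the 9396 genes were fitted (395 unadjusted) or when no trend on mean level was used (257 unadjusted), so these calls depend on the setting.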

How the data were processed

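RNA of mouse lung was measured by 3' end sequencing (QuantSeq) in 4 libraries, 1 per group, and groups were taken from the sample titles. Per the submitters' processing notes reads were aligned with Bowtie2 to mm10 and counted per gene with bedtools, and the authors normalized with the quantile method of edgeR. Versions, annotation and use of strand are not given in the sources used here, so overlapping, antisense and near-identical genes may share reads. The deposited values of the authors are log2(normalized read count + 1), 23282 rows with 23238 symbols, 79 rows sharing a symbol, joined by row order.

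Members and gene lists were chosen with earlier results of these data known. Differences were taken on the deposited log2 values, as E(+)T(+) minus E(-)T(-), with limits of 2-fold and, for genes near the control, of 0.32. Whole reads were recovered in R 4.3.3 by fitting library sizes and 1 dispersion (0.372) to repeated low values, with the negative binomial quantile adjustment written out in base R. They gave back 100% of the values within 0.001 (99.55% equal at 3 decimals), with implied scaling factors of 1.0857, 1.023, 1.1717 and 0.7685 in library order (normal control, normal exercise, cancer control, cancer exercise). Depth was 13017458, 12780333, 9354570 and 13367994 reads, and the floor of 3 reads equals 0.23, 0.235, 0.321 and 0.224 CPM. Intervals (95%, Clopper-Pearson) and floors cover counting error only, since PCR reads without molecular identifiers are not independent. The additive fit used limma 3.58.1 (lmFit, eBayes with trend, Benjamini-Hochberg) on 15164 rows with a mean of 4 or more. Both steps were tested on simulated data. Genes named were the 15 farthest above and below the control, the 10 largest near or away as described, and for each list the 4 most abundant genes and the 2 of largest difference. A gene outside these rules is said to be chosen after its values were seen, or illustrates a role. Alternatives were 3 scalings, pseudocounts of 4 and 0.5, other filters and, for the fit, no trend. Some genes that these rules name are not reported here.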

Additional observations from a re-analysis of the deposited data

How the results depend on the processing

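No paired analysis was possible because each group is 1 library and the labels carry no replicate numbers, and for the same reason no replicate could be left out. Scaling by library totals alone gave 510 genes higher and 2257 lower in place of 985 and 843, and totals without hemoglobin gave 773 and 1202, so that leaving out hemoglobin took back part of the shift. A filter of mean at least 4 tested 15164 rows and gave 2244 higher, 2178 lower and 4041 past 2-fold with an interval excluding no difference, and a filter of at least 1000 tested 1934 rows and gave 213 higher, 97 lower, 736 near the control and 310 such intervals. Of the genes past 2-fold, 50.7% and 68.7% were higher under these filters, against 53.9%. The additive fit called 45 genes, but 0 when only genes of mean 100 or more were fitted, 0 without a trend, 13 with totals that leave out hemoglobin and 95 with a pseudocount of 4. The cause was not tested. Pseudocounts, the median set to 0, a filter on the 2 compared libraries and leaving out rows that share a symbol kept the 3 counts of genes within 1.5 times, and no gene named past 2-fold and no list median past 2-fold changed sign under any of these alternatives or scalings. With 1 library per group the values describe these libraries, and depth limits only genes of few reads.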
